A study of Homo sapiens with 9 samples.

Results

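The 36 genes described here make, or regulate the making of, cholesterol and fatty acids. They were taken by name from the deposited count table, which lists 58347 Ensembl gene IDs, and each of the 36 was matched to 1 row. They comprise 5 regulators of the sterol regulatory element binding proteins (SREBF1, SREBF2, SCAP, INSIG1 and INSIG2), 20 genes of the sterol branch, 10 genes of the fatty acid branch, and MYLIP, which belongs to neither. All 36 passed the filter on low counts, and the lowest count of any of them in any library was 106.

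SREBF1 and SREBF2 encode membrane-bound transcription factors of the endoplasmic reticulum. SCAP escorts their precursors to the Golgi apparatus, where proteases release the active part, and the INSIG proteins hold SCAP back when sterols are plentiful. In the nucleus the SREBF2 product is best known for switching on the mevalonate and sterol pathway, and the SREBF1 products for switching on fatty acid synthesis, with overlap between them. Rapamycin, in complex with the protein FKBP12, inhibits the kinase complex mTORC1, which is known to promote SREBP activity. The sterol branch starts from acetyl-CoA, passes through mevalonate, farnesyl diphosphate and squalene to lanosterol, and ends at cholesterol. The fatty acid branch turns citrate or acetate into acetyl-CoA and malonyl-CoA, builds palmitate, and then elongates and desaturates it.

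The cells were K562, a human erythroleukaemia line (ATCC CCL-243), in a version the labels call K562-FIRE. Every group carried the same 3 transgenes, each under the EF1a promoter: dCas9 with 2A Blast, MS2-Fkbp(1x) with 2A Hygro, and SS18-Frb with PGK Puro. The labels mark the dCas9 and SS18-Frb constructs as Lv. Fkbp and Frb bind each other in the presence of rapamycin, and SS18 is a subunit of the BAF chromatin remodelling complex. Rapamycin was therefore both the agent that joins the fusions and an mTORC1 inhibitor in every treated library, and these actions cannot be told apart in this design. Cells held an sgRNA against the HBG1 promoter or a non-targeting (NT) sgRNA, and received 10 nM rapamycin or the solvent DMSO for 24 h. The 9 libraries were 3 with the HBG1 sgRNA and DMSO, 3 with the HBG1 sgRNA and rapamycin, 1 with the NT sgRNA and DMSO, and 2 with the NT sgRNA and rapamycin. The sources used here do not say whether the line was 1 clone or whether replicates were separate cultures, so p-values measure the spread between these libraries, which may be technical.

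Poly(A)-selected RNA was sequenced, and library totals ran from 19797409 to 31619671 counts. Values are given as CPM (counts scaled to a common library size) with TMM factors, which lay between 0.977 and 1.02. The K562 markers GATA1, TAL1, KLF1, EPOR, HBZ and TFRC were above 30 CPM in every library, and between DMSO and rapamycin GATA1 rose and TFRC fell. Of 15 markers of T cells, B cells, myeloid cells, fibroblasts and epithelium, 6 had a mean above 1 CPM, KRT5 was at 0 in all 9 libraries, and MS4A1 was at 0 in 8. The summed level of the 15 was 74.1 to 88.4 CPM in HBG1 sgRNA cells with DMSO, 86.4 to 99.4 CPM in HBG1 sgRNA cells with rapamycin, 85.7 CPM in NT sgRNA cells with DMSO and 78.0 to 90.2 CPM in NT sgRNA cells with rapamycin. EPCAM, LYZ and COL1A2 held most of that sum, and none of the 15 passed the test between DMSO and rapamycin. With the replicate number as a block, LYZ and COL1A2 rose, with log2 fold changes of 0.34 and 0.55 and edgeR adjusted p-values of 0.0274 and 0.00922. The part of these markers in the results below was not tested.

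The main question put to the data was how 24 h of rapamycin moved these genes. In HBG1 sgRNA cells, 13 of the 36 fell and 1 rose (edgeR quasi-likelihood test over all 9 libraries, Benjamini-Hochberg adjusted p below 0.05 over 23675 tested genes). Over all tested genes, 4.05% fell and 2.75% rose. The lowest mean of the 36 was 6.3 CPM, and among the 12163 tested genes at or above it, 7.74% fell and 4.42% rose. That floor does not match the 36 by level, since their means ran up to 851 CPM. The fallers comprised 7 genes of the sterol branch, 4 of the fatty acid branch and the regulators SREBF1 and INSIG1, and the gene that rose was TM7SF2 of the sterol branch. The falls were small, between 0.721 and 0.824 of the DMSO level. CPM is relative to the library, so a change in total RNA per cell would not be seen. These are also bulk libraries, so less RNA per cell and fewer cells with that RNA cannot be told apart.

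The plot of the 36 fold changes shows the fallers between -0.47 and -0.28. The threshold keeps out smaller falls, so their gap from 0 is partly set by the call. STARD4, at -0.34, lies among them without passing.

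**Figure D1:**
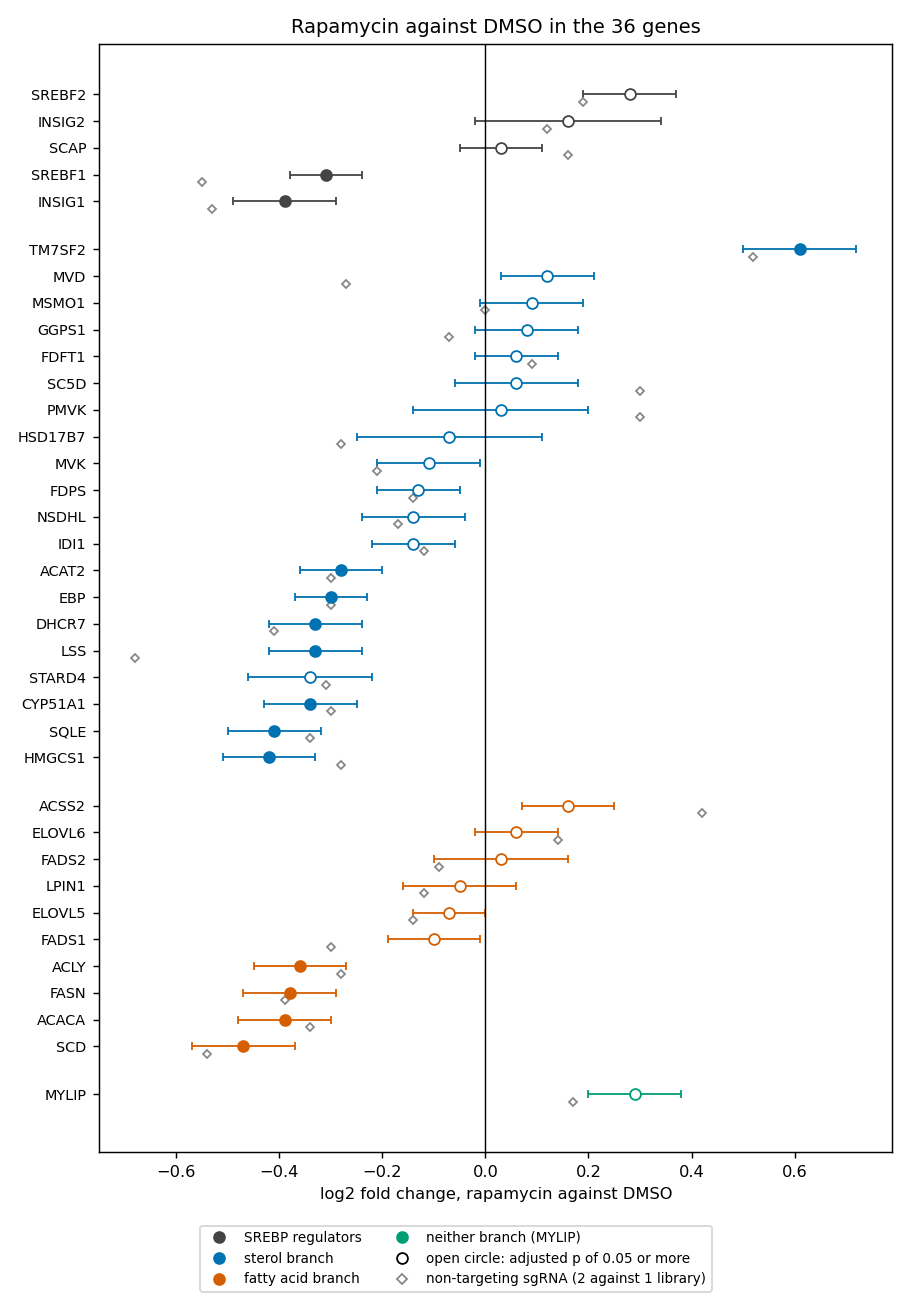
Log2 fold change of rapamycin against DMSO (x axis) for each of the 36 genes (y axis), ordered within regulators, sterol branch, fatty acid branch and MYLIP. Circles are the HBG1 sgRNA estimates with bars of 1 standard error, filled where the adjusted p was below 0.05, and diamonds are the NT sgRNA estimates from 2 libraries against 1. TM7SF2, at 0.61, is the one filled circle to the right of 0, and the lowest is SCD at -0.47.

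Among the regulators, the genes for SREBF1 and for the sterol-sensing retention factor INSIG1 fell. SREBF1 (ENSG00000072310) stood at 159, 171 and 163 CPM in the 3 HBG1 sgRNA libraries with DMSO and at 127, 144 and 126 CPM with rapamycin. All rapamycin libraries lay below all DMSO libraries, and the means were 164 ± 6.48 (SD, n = 3) and 132 ± 10.0 CPM (SD, n = 3). The fitted log2 fold change was -0.31 (SE 0.07, adjusted p = 0.0183 by edgeR's quasi-likelihood test).

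INSIG1, itself a well-known SREBP target, read 130.4, 175 and 136 CPM with DMSO and 109, 110.3 and 118 CPM with rapamycin. The groups did not overlap, but the DMSO libraries were spread widely, and the second was the highest. The means were 147 ± 24.2 (SD, n = 3) and 112 ± 4.49 CPM (SD, n = 3), and the log2 fold change was -0.39 (SE 0.10, edgeR adjusted p = 0.0333). It was lowest in replicate pair 2 at -0.66, against -0.25 in pair 1 and -0.21 in pair 3. The calls of SREBF1 and INSIG1 were lost without HBG1 sgRNA DMSO library 2 or 3 or the third HBG1 sgRNA rapamycin library, and that of INSIG1 also without the second rapamycin library or with library totals only.

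SREBF2, the factor of the sterol branch, had the opposite sign. It read 152, 159 and 158 CPM with DMSO and 163, 213 and 193 CPM with rapamycin, so all rapamycin libraries were higher, with means of 156 ± 3.81 (SD, n = 3) and 189.6 ± 24.9 CPM (SD, n = 3). Its log2 fold change of 0.28 (SE 0.09) missed the threshold (edgeR adjusted p = 0.0637) and passed it in 6 of 18 alternatives. One was the fit with the replicate number as a block, at 0.28 with an adjusted p of 0.00516. With that block, 7.43% of the genes tested rose.

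The escort SCAP read 115, 114 and 121 CPM with DMSO and 115, 132 and 111 CPM with rapamycin, and these ranges overlapped (log2 fold change 0.03, SE 0.08, edgeR adjusted p = 0.866). INSIG2, the second retention factor, was the weakest of all 36 genes per length. It read 6.09, 6.17 and 5.21 CPM with DMSO and 7.32, 5.32 and 6.91 CPM with rapamycin, again overlapping (log2 fold change 0.16, SE 0.18, edgeR adjusted p = 0.673).

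The promoters of SREBF2 and INSIG1 are printed because their fold changes had opposite signs, although that of SREBF2 did not pass the test, and because SREBF2 holds a sterol element and INSIG1 an E-box. Both windows hold the NF-Y box. RefSeq windows of 250 bases before to 50 after the annotated start (GRCh38.p14) were found for 32 of the 36 genes. ACAT2, FDFT1, SQLE and FASN had none in the table. INSIG1 is at chr7:155297628-155297927 on the plus strand and SREBF2 at chr22:41832855-41833154 on the plus strand. Both are written 5′ to 3′ along the gene, and capitals mark matches to the searched motifs on either strand: the sterol element TCACNCCAC, the E-box CACGTG, and the NF-Y box CCAAT, which reads ATTGG on the other strand.
SREBF2: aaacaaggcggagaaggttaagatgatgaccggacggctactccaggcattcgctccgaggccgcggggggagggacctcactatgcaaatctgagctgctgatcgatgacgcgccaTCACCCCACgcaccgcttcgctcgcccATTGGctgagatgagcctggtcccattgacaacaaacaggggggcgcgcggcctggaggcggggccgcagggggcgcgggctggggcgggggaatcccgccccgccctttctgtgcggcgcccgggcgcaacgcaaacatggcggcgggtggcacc
INSIG1: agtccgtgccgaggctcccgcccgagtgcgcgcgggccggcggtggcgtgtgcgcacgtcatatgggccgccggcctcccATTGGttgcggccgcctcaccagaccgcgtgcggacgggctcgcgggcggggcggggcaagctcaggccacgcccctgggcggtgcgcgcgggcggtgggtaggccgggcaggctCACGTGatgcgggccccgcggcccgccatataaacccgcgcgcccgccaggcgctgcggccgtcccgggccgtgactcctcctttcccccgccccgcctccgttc

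In SREBF2 the sterol element reads TCACCCCAC and begins 133 bases before the start, with ATTGG at 106 bases before it. INSIG1 holds CACGTG at 55 bases and ATTGG at 170 bases before its start. SREBF2 was the single one of the 32 genes with a TCACNCCAC match, and 1.4% of the 11811 tested genes in the promoter table had one in any window. CACGTG was found in 5 of 32 genes (15.6%), against 12.2% of tested genes. CCAAT was found in 24 of 32 genes (75.0%), against 42.3% of tested genes. It occurred in 15 of 17 sterol branch genes (88.2%), in 6 of 9 fatty acid branch genes (66.7%), and in 8 of the 10 fallers with a window (80.0%). None of these motifs overlap one another in the printed windows. A match is a description of letters, and binding was not measured in this study.

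In the sterol branch, 7 of 20 genes fell, 1 rose and 12 did not pass the test. The fallers span the path from its entry to its last step. They are ACAT2, HMGCS1, SQLE, LSS, CYP51A1, EBP and DHCR7. The count of 7 fell to 0 without the second HBG1 sgRNA DMSO library, to 1 without the third, and to 2 without the third HBG1 sgRNA rapamycin library. It was 4 without the first HBG1 sgRNA rapamycin library, and 3 without either NT sgRNA rapamycin library, with library totals in place of TMM factors, or in a fit of the 6 HBG1 sgRNA libraries alone. The direction of these 7 genes did not change in any of those fits.

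At the entry of the pathway, HMGCS1 (HMG-CoA synthase) joins acetoacetyl-CoA and acetyl-CoA and had the largest fall of the branch. It read 141, 163 and 127 CPM with DMSO and 100.2, 111 and 111 CPM with rapamycin. The groups did not overlap, and the rapamycin libraries were closer together, at 107 ± 6.08 (SD, n = 3) against 143 ± 18.1 CPM (SD, n = 3). The log2 fold change was -0.42 (SE 0.09, edgeR adjusted p = 0.00946), and the adjusted p was 0.0711 without the second DMSO library. HMGCS1 shares 15.0% of its annotated exon bases with a neighbour on the other strand, and the sources used here do not give a strand setting for counting.

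ACAT2, the cytosolic thiolase that makes acetoacetyl-CoA, read 159, 152 and 139.7 CPM with DMSO and 132, 116 and 123 CPM with rapamycin. All rapamycin values were lower (log2 fold change -0.28, SE 0.08, edgeR adjusted p = 0.0429). Its value is uncertain because 52.3% of its exon bases overlap SOD2, SOD2-OT1 or TCP1. The call was lost in 9 of 18 alternative fits.

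The mevalonate and prenyl steps that follow were near 0. The mevalonate kinase MVK, phosphomevalonate kinase PMVK, decarboxylase MVD, isomerase IDI1, farnesyl diphosphate synthase FDPS and geranylgeranyl diphosphate synthase GGPS1 had log2 fold changes from -0.14 (IDI1) to 0.12 (MVD). None passed the test, with edgeR adjusted p-values from 0.367 to 0.945. Of their annotated exon bases, GGPS1 shares 41.0% with other genes, FDPS 18.6% and IDI1 14.8%, so these values are less certain. The squalene synthase FDFT1, which commits farnesyl diphosphate to sterols, read 165, 181 and 156 CPM with DMSO and 176, 163 and 182 CPM with rapamycin. These ranges overlap, and its log2 fold change was 0.06 (SE 0.08, edgeR adjusted p = 0.747).

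From squalene to lanosterol both enzymes fell. SQLE, the squalene epoxidase and a rate-controlling step of the pathway, read 183, 226 and 218 CPM with DMSO and 142, 161 and 169.9 CPM with rapamycin. All rapamycin libraries were below all DMSO libraries, with means of 209 ± 23.0 (SD, n = 3) and 158 ± 14.1 CPM (SD, n = 3). Its log2 fold change was -0.41 (SE 0.09, edgeR adjusted p = 0.0145), with -0.36, -0.49 and -0.36 in the 3 replicate pairs.

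LSS, the lanosterol synthase that closes the sterol rings, read 83.3, 103 and 99.4 CPM with DMSO and 70.8, 81.9 and 73.8 CPM with rapamycin. The highest rapamycin library stood just under the lowest DMSO library (log2 fold change -0.33, SE 0.09, edgeR adjusted p = 0.0376). CYP51A1, the lanosterol 14-alpha-demethylase, read 87.6, 106 and 102 CPM with DMSO and 69.6, 80.9 and 82.8 CPM with rapamycin. The groups did not overlap here either (log2 fold change -0.34, SE 0.09, edgeR adjusted p = 0.0343). The call was lost in 8 of 18 alternatives for LSS and in 9 of 18 for CYP51A1. For CYP51A1, 83.2% of exon bases lie under CYP51A1-AS1 or other annotated transcripts, so reads of the gene and its antisense partner cannot be told apart.

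At the step after CYP51A1, the reduction of the C14 double bond, the data split. TM7SF2 encodes one C14 reductase, and it was the member that rose. It read 14.4, 14.4 and 15.6 CPM with DMSO and 21.2, 22.9 and 23.4 CPM with rapamycin. Every rapamycin library lay clear of every DMSO library, with means of 14.8 ± 0.699 (SD, n = 3) and 22.5 ± 1.12 CPM (SD, n = 3). The log2 fold change was 0.61 (SE 0.11, edgeR adjusted p = 0.00349), a 1.52-fold rise. It was 0.56, 0.67 and 0.58 in the 3 replicate pairs and passed the threshold under all 18 alternatives.

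LBR, the lamin B receptor of the inner nuclear membrane, carries the same C14 reductase activity and belongs to the further pathway genes rather than to the 36. It read 232, 251 and 246 CPM with DMSO and 182, 211 and 204 CPM with rapamycin. Its groups did not overlap, and it fell (log2 fold change -0.29, SE 0.08, edgeR adjusted p = 0.0295). Per kilobase of annotated exon, the mean of the 9 libraries was 42.2 ± 4.47 CPM (SD) for LBR and 5.62 ± 1.18 CPM (SD) for TM7SF2. TM7SF2 thus rose from a low level while the more abundant gene fell.

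The promoters of HMGCS1 and TM7SF2 are printed because these genes mark the largest fall and the rise of the branch. HMGCS1 has 2 windows in the table, and the one printed is at chr5:43313363-43313662 on the minus strand. The other, at chr5:43313132-43313431, held no match to any of the motifs and is not printed. TM7SF2 is at chr11:65111622-65111921 on the plus strand. The build and the capitals are as before.
HMGCS1: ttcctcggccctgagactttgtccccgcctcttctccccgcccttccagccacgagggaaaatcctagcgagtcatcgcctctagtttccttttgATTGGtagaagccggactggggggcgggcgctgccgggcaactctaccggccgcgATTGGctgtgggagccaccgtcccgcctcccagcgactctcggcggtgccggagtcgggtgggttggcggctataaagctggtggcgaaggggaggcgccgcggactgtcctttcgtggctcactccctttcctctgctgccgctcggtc
TM7SF2: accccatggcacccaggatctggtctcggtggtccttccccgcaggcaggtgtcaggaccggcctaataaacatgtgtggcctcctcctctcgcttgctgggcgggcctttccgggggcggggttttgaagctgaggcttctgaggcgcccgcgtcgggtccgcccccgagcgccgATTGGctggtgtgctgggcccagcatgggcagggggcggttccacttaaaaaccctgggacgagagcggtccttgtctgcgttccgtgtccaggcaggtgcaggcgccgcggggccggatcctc

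The printed HMGCS1 window has ATTGG at 155 and at 100 bases before its start, and TM7SF2 has it at 74 bases before the start.

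The later demethylation steps did not pass the test. They are catalysed by MSMO1, NSDHL and HSD17B7, whose log2 fold changes were 0.09, -0.14 and -0.07, with edgeR adjusted p-values of 0.68, 0.509 and 0.872. EBP, the sterol isomerase that follows, was among the tightest fallers. It read 83.4, 86.6 and 88.7 CPM with DMSO and 70.6, 71.2 and 68.7 CPM with rapamycin, or 86.2 ± 2.68 (SD, n = 3) against 70.1 ± 1.27 CPM (SD, n = 3). Its log2 fold change was -0.30 (SE 0.07, edgeR adjusted p = 0.0203). The desaturase SC5D stood at 0.06 (edgeR adjusted p = 0.834).

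DHCR7, the reductase that makes cholesterol from 7-dehydrocholesterol, read 114, 124 and 110.0 CPM with DMSO and 80.3, 105 and 92.2 CPM with rapamycin. All rapamycin values were lower (log2 fold change -0.33, SE 0.09, edgeR adjusted p = 0.0475), and the call was lost in 10 of 18 alternatives. STARD4, a cytosolic sterol carrier, read 36.2, 49.8 and 37.4 CPM with DMSO and 30.7, 33.7 and 33.3 CPM with rapamycin. These groups did not overlap, yet its log2 fold change of -0.34 (SE 0.12) had an edgeR adjusted p of 0.112. With the replicate block it was -0.32 with an adjusted p of 0.0188, in a fit where 9.62% of tested genes fell.

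The per-library plot shows the 14 genes past the threshold, with the NT sgRNA libraries beside them.

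**Figure D2:**
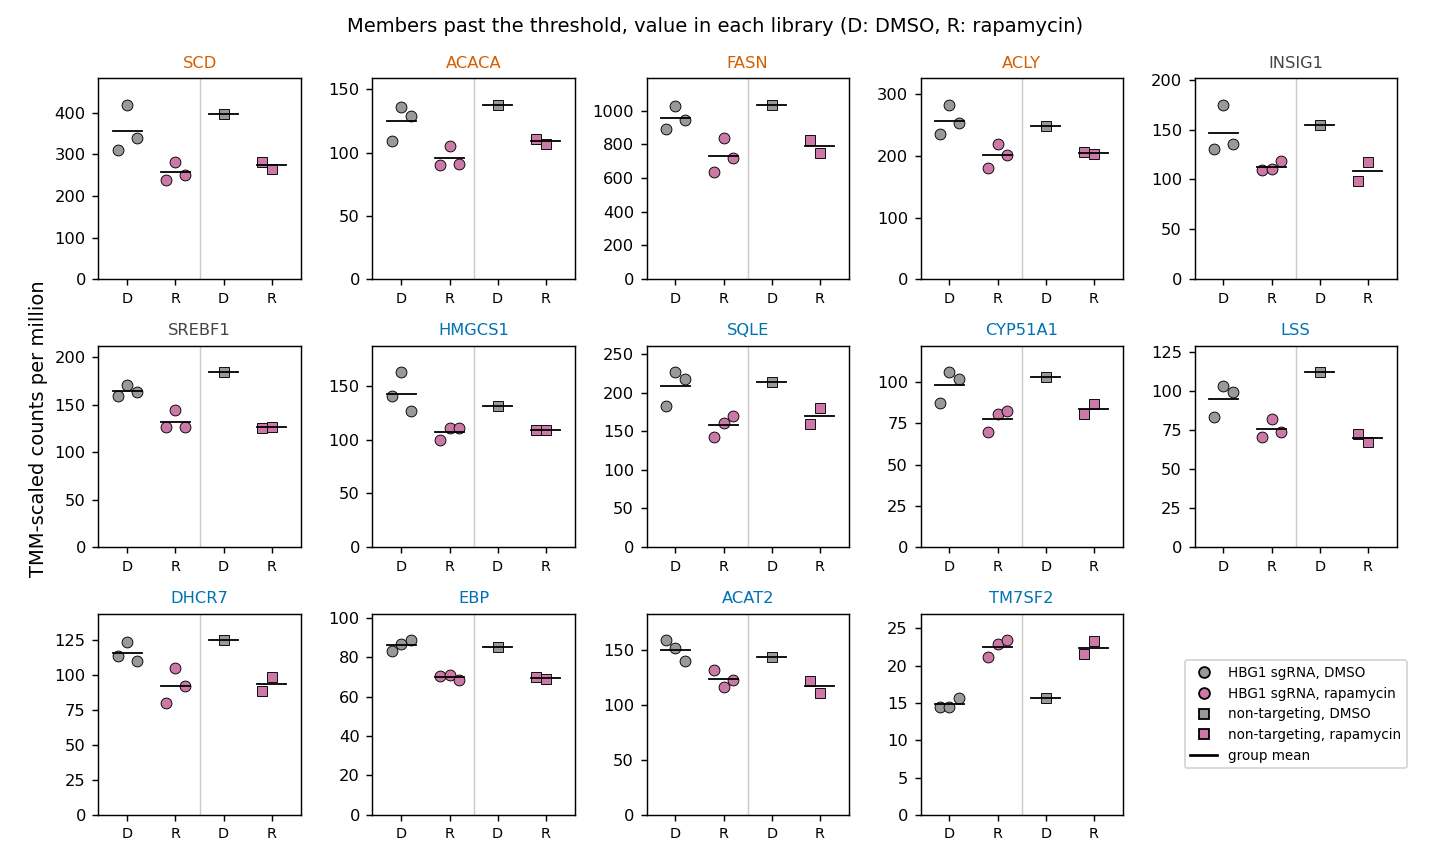
TMM-scaled CPM (y axes, each from 0) in each of the 9 libraries for the 14 genes past the threshold, with D for DMSO and R for rapamycin and lines at group means. Circles are HBG1 sgRNA libraries and squares NT sgRNA libraries. In each panel the 3 rapamycin circles lie on one side of the 3 DMSO circles, above them for TM7SF2 and below them for the other genes.

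In the fatty acid branch, 4 of 10 genes fell, none rose and 6 did not pass the test. The fallers are ACLY, ACACA and FASN, which carry citrate to palmitate, and SCD, which puts the first double bond into saturated chains. The count of 4 fell to 0 without the second HBG1 sgRNA DMSO library or the third HBG1 sgRNA rapamycin library, and to 1 without the third HBG1 sgRNA DMSO library. In each of those fits the 4 genes kept a negative fold change.

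ACLY, ATP citrate lyase, supplies cytosolic acetyl-CoA to both branches. It read 235, 283 and 253 CPM with DMSO and 180.4, 219.9 and 202 CPM with rapamycin, with no overlap. The means were 257 ± 24.2 (SD, n = 3) and 201 ± 19.8 CPM (SD, n = 3), and the log2 fold change was -0.36 (SE 0.09, edgeR adjusted p = 0.0197). The 3 replicate pairs lay close together, at -0.38, -0.36 and -0.33.

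ACACA, the acetyl-CoA carboxylase that makes malonyl-CoA, read 109, 136 and 129 CPM with DMSO and 90.3, 105 and 90.8 CPM with rapamycin. All rapamycin libraries were lower, with means of 125 ± 13.9 (SD, n = 3) and 95.5 ± 8.56 CPM (SD, n = 3). Its log2 fold change was -0.39 (SE 0.09, edgeR adjusted p = 0.0176).

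FASN, the fatty acid synthase, had the highest level per length of the 36 genes. It read 891, 1024 and 943 CPM with DMSO and 633, 837 and 719 CPM with rapamycin, or 953 ± 67.1 (SD, n = 3) against 729.6 ± 102 CPM (SD, n = 3). The groups did not overlap, the first rapamycin library was the lowest, and the log2 fold change was -0.38 (SE 0.09, edgeR adjusted p = 0.0182).

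SCD, the stearoyl-CoA desaturase, had the largest fall of all 36 genes. It read 310.2, 419 and 339.5 CPM with DMSO and 238, 282 and 251 CPM with rapamycin. Every rapamycin library was below every DMSO library, with means of 356 ± 56.4 (SD, n = 3) and 257 ± 23.0 CPM (SD, n = 3). The log2 fold change was -0.47 (SE 0.10, edgeR adjusted p = 0.0094), and the pairs read -0.38, -0.57 and -0.44.

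The SCD window is printed as the promoter of the largest fall. It is at chr10:100346983-100347282 on the plus strand, and its capitals mark CCAAT at 229 and at 186 bases before the start.
SCD: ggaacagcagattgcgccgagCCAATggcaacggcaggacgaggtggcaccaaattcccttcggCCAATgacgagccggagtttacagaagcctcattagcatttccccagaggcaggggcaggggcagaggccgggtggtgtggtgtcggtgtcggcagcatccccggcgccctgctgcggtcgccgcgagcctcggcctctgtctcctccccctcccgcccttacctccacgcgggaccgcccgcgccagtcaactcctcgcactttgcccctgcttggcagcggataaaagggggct

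The remaining fatty acid genes stayed close to 0. The elongases ELOVL5 and ELOVL6 had log2 fold changes of -0.07 and 0.06, and the desaturases FADS1 and FADS2 of -0.10 and 0.03. Their edgeR adjusted p-values ran from 0.588 (FADS1) to 0.939 (FADS2). FADS1, which introduces double bonds into polyunsaturated chains, stood at 502 ± 60.2 CPM (SD, n = 3) with DMSO and 468 ± 22.6 CPM (SD, n = 3) with rapamycin. Its ranges overlapped, unlike those of SCD. The phosphatidate phosphatase LPIN1 stood at -0.05 (edgeR adjusted p = 0.852).

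ACSS2, which makes acetyl-CoA from acetate and so feeds the same pool as ACLY, had the highest fold change of the branch. It read 34.0, 35.6 and 33.3 CPM with DMSO and 40.6, 35.8 and 38.5 CPM with rapamycin. All rapamycin libraries were higher, the nearest by a narrow margin, and the log2 fold change of 0.16 (SE 0.09) did not pass the test (edgeR adjusted p = 0.336).

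MYLIP encodes the ubiquitin ligase that marks lipoprotein receptors for degradation and is known as a target of the liver X receptors, which sense oxysterols. It read 51.0, 54.9 and 43.6 CPM with DMSO and 60.9, 64.4 and 58.1 CPM with rapamycin, so all rapamycin libraries were higher. The log2 fold change was 0.29 (SE 0.09, edgeR adjusted p = 0.0703), and with the replicate block it was 0.31 with an adjusted p of 0.00594. In that block fit 7.43% of tested genes rose.

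Set side by side, both branches lay slightly below all tested genes. The median log2 fold change was -0.13 over the 20 sterol genes and -0.09 over the 10 fatty acid genes, against 0.02 over all 23675 tested genes. In sign alone, 13 of 20 sterol genes and 7 of 10 fatty acid genes were lower. The difference between the branch medians was -0.04 and ranged from -0.09 to 0.04 when single libraries were left out, so no order of the branches held. Each branch held genes that moved little beside the fallers: the sterol genes that did not pass the test lay between -0.14 and 0.12 apart from STARD4 at -0.34, and those of the fatty acid branch between -0.10 and 0.16.

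Without reference to the test, 14 of the 36 genes had all 3 rapamycin libraries below all 3 DMSO libraries, 4 had all 3 above, and 18 overlapped. Over all tested genes, 13.1% were wholly lower and 12.2% wholly higher. The 4 of 36 that were wholly higher lie near the latter share. The 14 comprised 8 sterol genes, 4 fatty acid genes and 2 regulators, and the 4 were SREBF2, TM7SF2, ACSS2 and MYLIP.

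The replicate pairs differed in how far the sterol branch moved. Its median log2 ratio was -0.22 in pair 1, -0.26 in pair 2 and -0.03 in pair 3, with 15, 16 and 10 of 20 genes lower. The fatty acid medians were -0.04, -0.18 and -0.07, with 6, 8 and 6 of 10 genes lower. The medians over all tested genes were 0, 0 and 0.02. In the plot by pair, the called genes of both branches lie below 0 in every pair, apart from TM7SF2. That sign is fixed by groups that did not overlap in the same libraries. The rest as a set scatter on both sides. Among them MVK, FDPS and STARD4 lie below 0 in every pair, and MVD and ACSS2 above it.

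**Figure D3:**
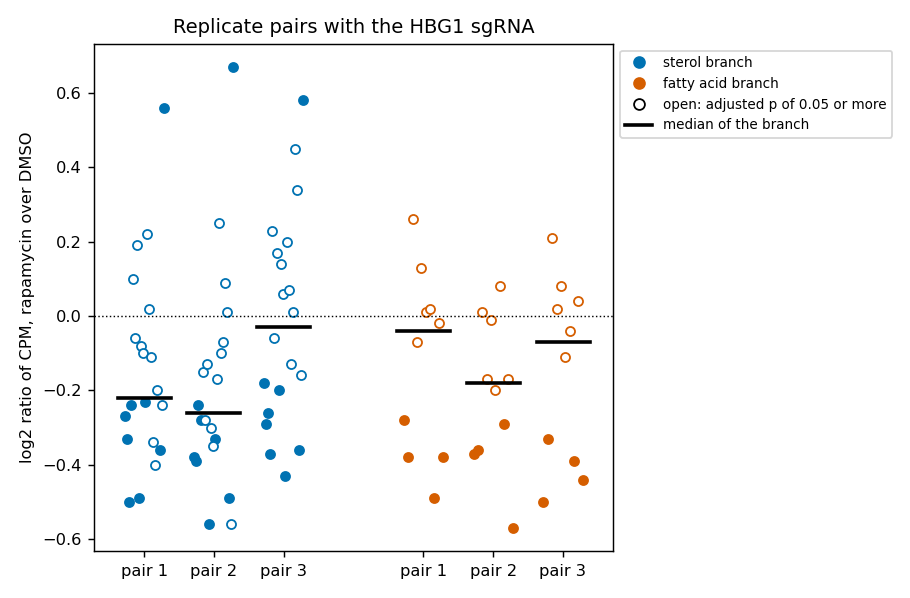
Log2 ratio of CPM, rapamycin over DMSO (y axis), in each of the 3 HBG1 sgRNA replicate pairs (x axis) for the 20 sterol and the 10 fatty acid genes. Filled points passed the test, open points did not, and bars mark branch medians, which run from -0.26 to -0.03 in the sterol branch and from -0.18 to -0.04 in the fatty acid branch.

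The NT sgRNA libraries give the same contrast in other libraries, with 2 rapamycin libraries and 1 DMSO library. Since 1 DMSO library has no spread of its own, no test was made. All 14 genes called in HBG1 sgRNA cells had the same sign here, as did 1572 of all 1609 called genes (97.7%). SCD read 396 CPM with DMSO and 281 and 265 CPM with rapamycin, FASN 1035 CPM against 824 and 750.4 CPM, and SREBF1 184 CPM against 125 and 126 CPM. The rapamycin values of all 3 genes are lower than the DMSO value. TM7SF2 read 15.6 CPM with DMSO and 21.5 and 23.3 CPM with rapamycin, higher in both. LSS had the lowest estimate, -0.68, from 112 CPM with DMSO and 72.8 and 67.1 CPM with rapamycin.

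Among the other regulators, INSIG1 and SREBF2 moved in the direction seen in HBG1 sgRNA cells, where SCAP and INSIG2 had overlapped between treatments. INSIG1 read 155 CPM with DMSO and 98.0 and 117 CPM with rapamycin, lower in both. SREBF2 read 178 CPM against 207 and 198 CPM, and SCAP 109 CPM against 117 and 126 CPM. INSIG2 read 6.22 CPM against 6.59 and 6.91 CPM. All of these were higher in both, as were 38.4% of all tested genes.

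The other called sterol genes were lower with rapamycin in both NT libraries. At the entry, ACAT2 read 144 CPM with DMSO and 122 and 111 CPM with rapamycin, and HMGCS1 132 CPM against 109 and 109 CPM. SQLE read 214 CPM against 159 and 179.5 CPM, and CYP51A1 103 CPM against 80.9 and 86.9 CPM. At the later steps, EBP read 85.5 CPM against 70.2 and 68.9 CPM, and DHCR7 125 CPM against 88.7 and 98.7 CPM. In the fatty acid branch, the acetyl-CoA and malonyl-CoA enzymes were lower and the acetate enzyme higher in both. ACLY read 249 CPM with DMSO and 207 and 203 CPM with rapamycin, and ACACA 138 CPM against 111 and 107 CPM. ACSS2 read 30.9 CPM against 41.1 and 41.8 CPM.

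Both NT rapamycin libraries were below the NT DMSO library in 23 of the 36 genes, above it in 10 and on either side of it in 3. The shares over all tested genes were 35.4% below and 38.4% above. The 23 comprised 14 sterol genes, 7 fatty acid genes and 2 regulators. The branch medians were -0.24 for sterol and -0.21 for fatty acid genes, against 0.03 over all tested genes.

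Whether the guide mattered was asked under rapamycin, with 3 HBG1 sgRNA libraries against 2 NT sgRNA libraries. None of the 36 genes passed the test (edgeR, smallest adjusted p = 0.783), and none had an unadjusted p below 0.05. Their log2 fold changes ran from -0.21 to 0.19, and 7 of all tested genes (0.0296%) were called. DESeq2 and limma-voom called 0 of the 36 as well.

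The difference of the rapamycin effect between guides, tested as an interaction, was called in 0 of the 36 genes by edgeR, DESeq2 and limma-voom, and in 0.00422% of all tested genes by edgeR. The estimates ran from -0.27 to 0.38 with edgeR adjusted p-values of 1. In that fit MVD was the single gene with an unadjusted p below 0.05 (0.0351, edgeR), and LSS stood at 0.05. With the replicate block within each guide, LSS was the single one, with an interaction of 0.41 and an unadjusted p of 0.00498, while MVD had 0.0525, and the edgeR adjusted p of both was 1. The log2 fold change of MVD was 0.12 with the HBG1 sgRNA and -0.27 with the NT sgRNA, from 64.6, 66.2 and 60.8 CPM with DMSO and 65.7, 78.8 and 63.7 CPM with rapamycin in the former. In the latter it read 74.1 CPM with DMSO and 57.7 and 65.6 CPM with rapamycin. The interaction rests on 1 NT DMSO library, which is assumed to vary like the libraries of the other groups, so the absence of calls says little about whether the guides differ.

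A further 52 genes of the pathway were followed to place the 36: proteases and retention factors of SREBP processing, electron donors and isoprenoid enzymes, other enzymes of lipid synthesis, and genes of sterol efflux. Of these, 49 were tested, 4 fell and none rose, and their median log2 fold change was -0.09. The shares over all tested genes were 4.05% lower and 2.75% higher, and 7.74% and 4.42% among those at or above 6.3 CPM. With the replicate block 10 of 46 tested fell and 5 rose, against 9.62% and 7.43% of all genes in that fit. In the main fit, the share to set beside 4 of 49 is 4.05%. The 7.74% share has a floor of 6.3 CPM, and some of the 49, such as ACACB and HACD1, lie below it. Of the 4 that fell, 3 are among the 11 genes of the sterol and isoprenoid group. The remaining 1 is among the 27 tested genes of other lipid synthesis. The 3 are LBR, described above, and DHDDS and NUS1, the subunits of the enzyme that makes dolichol's polyprenyl chain from farnesyl diphosphate.

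DHDDS read 33.4, 31.7 and 35.2 CPM with DMSO and 25.5, 25.2 and 23.3 CPM with rapamycin (log2 fold change -0.44, SE 0.11, edgeR adjusted p = 0.0191). NUS1 read 102, 106 and 104 CPM with DMSO and 84.9, 88.8 and 84.1 CPM with rapamycin (log2 fold change -0.28, SE 0.07, edgeR adjusted p = 0.0344). The fourth was ACSL4, which activates polyunsaturated fatty acids to their CoA esters, at -0.35 (SE 0.10, edgeR adjusted p = 0.0445). In all 4 the rapamycin libraries lay below the DMSO libraries. None of the 6 genes of precursor processing, which include the proteases MBTPS1 and MBTPS2, passed the test.

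Per length, the 36 genes covered a wide range. In CPM per kilobase of annotated exon, averaged over the 9 libraries, FASN was highest at 90.8 ± 14.6 (SD), followed by SCD at 57.7 ± 11.9 (SD). INSIG1 stood at 35.0 ± 6.69 (SD), SREBF2 at 23.8 ± 3.07 (SD) and SREBF1 at 18.3 ± 2.82 (SD). INSIG2 was lowest at 1.60 ± 0.181 (SD). The SDs take in both treatments and both guides, and the ranges of SREBF1 and SREBF2 touch within them. The plot of level per length shows genes of both branches at high and at low positions, and 11 of the 13 genes that fell are among the 18 with the higher levels. Calls of a fall also depended on level in general, at 7.74% of tested genes at or above 6.3 CPM against 4.05% of all. Whether abundant members fell more was not tested.

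**Figure D4:**
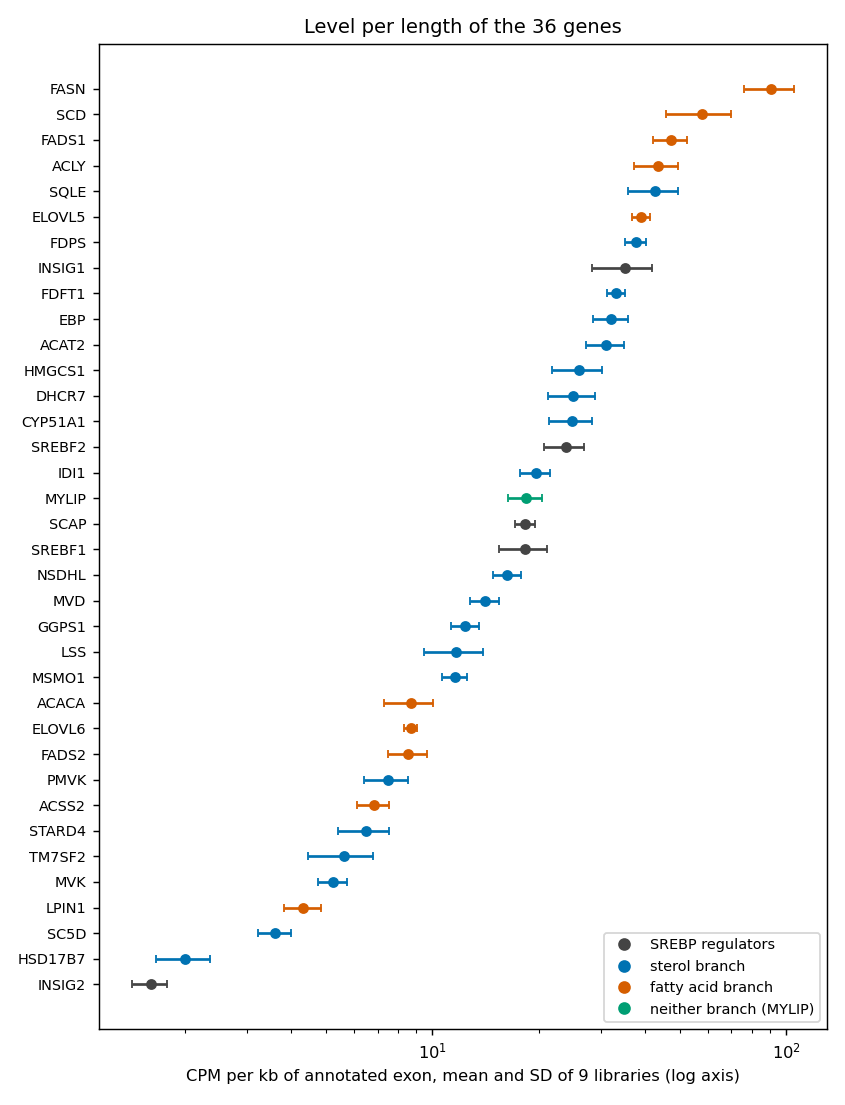
CPM per kilobase of annotated exon (log x axis), mean and SD of the 9 libraries, for the 36 genes (y axis) ordered by level and coloured by role. FASN at 90.8 and SCD at 57.7 lead, and INSIG2 at 1.60 is lowest.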

How the data were processed

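RNA counts of the 9 K562 libraries were analysed. Per the submitters' processing notes, reads were processed with STAR 2.7.3a and featureCounts (Subread 2.0.0) on GRCh38/hg38. The same notes list R 4.1.2, limma 3.34.9 and edgeR 3.24.0. The annotation release, strand setting and treatment of multimapping reads are not given in the sources used here. The deposited table holds raw counts per Ensembl gene from the authors. Symbols came from GENCODE 29, which matched 58039 of 58347 IDs (99.47%).

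In R 4.3.3, edgeR 4.0.16 fitted all 9 libraries with 1 mean per group (5 residual degrees of freedom), TMM factors and its expression filter (minimum count 10), which left 23675 genes. P-values were adjusted by Benjamini-Hochberg over all of these and called below 0.05. SE is the absolute log2 fold change divided by the root of F. The code was tested on simulated data. Replicate numbers pair the HBG1 sgRNA libraries: same-numbered libraries deviated together from their group means, with correlations of 0.55, 0.278 and 0.235 over the 11667 genes whose log2 CPM averaged 3 or more. Replicates 2 and 3 are hardly told apart, since rapamycin 2 with DMSO 3 gave 0.253 and rapamycin 3 with DMSO 2 gave 0.19. This pairing comes from the data and the shared numbers, since no label states it. Alternatives were RLE size factors, library totals only, no filter, DESeq2 1.42.0, limma-voom (limma 3.58.1), the replicate block, an additive model, and leaving out each library.

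The members and gene lists, and the background restricted by level, were chosen with earlier results of these data known. Values in every library are given for the 5 regulators, for genes called in HBG1 sgRNA cells and for the extremes of each branch. Of the further pathway genes, those called are named. The values of FDFT1, STARD4, FADS1, MYLIP and MVD, and the promoters of SREBF2 and TM7SF2, were added after values were seen. Read counts without molecular identifiers are not independent molecules.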

Additional observations from a re-analysis of the deposited data

How the results depend on the processing

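The number of genes called between rapamycin and DMSO in HBG1 sgRNA cells, 1609, was 3441 with the replicate block, 3263 in an additive model of guide and treatment, and 664 to 1731 when single libraries were left out (664, 749 and 693 without DMSO 2, DMSO 3 and rapamycin 3). The 7 sterol genes called lower became 3 with library totals only and 3 with the 6 HBG1 sgRNA libraries and no replicate block, and 0 to 7 without single libraries. The 4 fatty acid genes ranged from 0 to 4. The fatty acid median ranged from -0.17 to -0.02, and was -0.17 without DMSO 1. The replicate block called 14 of the 36 genes lower and 3 higher, against 13 and 1. It changed no other call than those of SREBF2, STARD4 and MYLIP. With that block 9.62% of all tested genes fell and 7.43% rose. The 3 of 36 called higher lie near the latter share. The 14 called genes kept their direction under all 18 alternatives, including one chosen after seeing the data, which left out both libraries of pair 1 and called 7 sterol and 4 fatty acid genes lower among 2110 genes. No member was called with the opposite sign in any alternative. TM7SF2 passed throughout. The count of all genes called was 1463 without DMSO 1 and 1731 without rapamycin 1, so it depended on which library was left out. Leaving out any 1 HBG1 sgRNA library lowers the residual degrees of freedom by the same amount. The cause of these differences was not tested. The guide comparison and the interaction called 0 members in every alternative. The lone NT DMSO library limits the NT contrast and the interaction.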
